A study of Mus musculus with 12 samples.

Results

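Transcripts of the cell cycle and of DNA replication were followed in cytotoxic T lymphocytes (CTL) that lacked the kinase PDK1 or were exposed to an inhibitor of Akt. The genes were taken from a list of 45, and every probe set annotated to a listed gene and to no other was read. Where a gene had several probe sets, the brightest, on average over the 12 arrays, stood for it. Of the 45 genes, 44 were measured, out of 18193 genes measured in the series: 28 of 28 genes of G1 and S phase and 16 of 17 genes of mitosis. Ccnb1, which encodes cyclin B1, was not analysed here. All 44 genes were above background in both experiments, the background being the 95th percentile of probe sets for olfactory and vomeronasal receptors (log2 signal 4.446 in the PDK1 experiment and 4.993 in the Akt experiment).

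All cultures came from spleens of C57BL/6 mice and were activated for 48 hr with the CD3 antibody 2C11 at 0.5 μg/ml, in 20 ng/ml IL-2, then washed and grown in the same IL-2 for 5 days, and total RNA was hybridized to Affymetrix mouse arrays. In the PDK1 experiment, Cre control CTL carried TamoxCre, a tamoxifen-activated Cre recombinase inserted at the ROSA locus, with wild type Pdpk1 alleles, and PDK1 null CTL carried TamoxCre with PDK1fl/fl alleles. Both were given 4OHT, a form of tamoxifen, at 0.6 μM for the final 72 hr, so the drug and the Cre were shared by the groups, with 3 mice of each genotype. The Akt experiment was run apart from it, and there the culture of each of 3 wild type mice was divided, and 1 portion received AktI (AktI-1/2), an allosteric inhibitor of Akt, at 1 μM for the final 48 hr, while the other stayed in IL-2 alone. Each group had 3 arrays. The ROSA locus is active in most cell types, so the Cre was not limited to T cells.

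A cell enters S phase after D-type cyclins with Cdk4 or Cdk6, and then cyclin E with Cdk2, inactivate the retinoblastoma protein and free E2F factors, which turn on the genes for the replication machinery. The genes of mitosis are expressed later, in G2 and M, largely through the MuvB complex with B-Myb and Foxm1. This complex acts at promoter elements called CHR, and the promoters of such genes often also hold CCAAT boxes. CDK inhibitors such as p21 and p27 oppose the cyclin-dependent kinases, and in T cells IL-2 drives this whole sequence.

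The difference between the gene classes can be read in their promoters. RefSeq windows on GRCm38.p6, from 250 bases before the transcription start to 50 bases after it, were found for 36 of the 45 listed genes (23 of G1 and S phase and 13 of mitosis, Ccnb1 included). No window was read for Mcm4, Gins1, Gins2, Ccnd2, Ccne2, Ccna2, Aurkb, Foxm1 and Kif20a. An E2F site (TTTCCCGC, TTTCGCGC, TTTGCCGC or TTTGGCGC, on either strand) was in the windows of 9 of 23 G1/S genes (39.1%) and of 1 of 13 mitosis genes (7.69%), against 2.6% of 27025 genes. A CHR (TTTGAA or TTCGAA, on either strand) was in 4 of 23 G1/S genes (17.4%) and in 10 of 13 mitosis genes (76.9%), against 21.7% of all genes. A CCAAT box (CCAAT, on either strand) was in 65.2% of the G1/S genes, 92.3% of the mitosis genes and 41.1% of all genes, and a CHR together with a CCAAT box was in 17.4%, 76.9% and 9.65%. The windows of Cdkn1a held none of these letters. A match of letters describes the window and does not show that a factor binds there.

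The 160 bases before the start of 3 replication genes and 3 mitosis genes are printed because they show the elements that set the classes apart. Capitals mark the E2F sites, CHR elements and CCAAT boxes, also where they lie on the other strand (a CCAAT box then reads ATTGG), and in Mcm5 and Mcm6 E2F sites of opposite strands overlap. The windows are for Mcm5 chr8:75109349-75109508 on the plus strand, Mcm6 chr1:128359706-128359865 on the minus strand, Cdc6 chr11:98907991-98908150 on the plus strand, Cdc20 chr4:118437344-118437503 on the minus strand, Cdk1 chr10:69352913-69353072 on the minus strand and Kif11 chr19:37376222-37376381 on the plus strand, and each is printed 5′ to 3′ along the gene.
Mcm5: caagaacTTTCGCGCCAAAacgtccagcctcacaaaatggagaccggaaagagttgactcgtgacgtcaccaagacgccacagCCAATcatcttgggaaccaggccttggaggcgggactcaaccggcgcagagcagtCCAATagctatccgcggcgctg
Mcm6: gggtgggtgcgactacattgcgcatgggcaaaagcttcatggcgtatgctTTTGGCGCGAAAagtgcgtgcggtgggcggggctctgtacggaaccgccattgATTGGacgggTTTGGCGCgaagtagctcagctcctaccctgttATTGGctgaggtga
Cdc6: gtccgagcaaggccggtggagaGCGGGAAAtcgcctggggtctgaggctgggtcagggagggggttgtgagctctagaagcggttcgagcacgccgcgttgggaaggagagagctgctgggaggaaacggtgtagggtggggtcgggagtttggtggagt
Cdc20: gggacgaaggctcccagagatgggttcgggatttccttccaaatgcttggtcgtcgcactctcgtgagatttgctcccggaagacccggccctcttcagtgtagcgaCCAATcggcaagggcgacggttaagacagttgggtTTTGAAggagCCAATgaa
Cdk1: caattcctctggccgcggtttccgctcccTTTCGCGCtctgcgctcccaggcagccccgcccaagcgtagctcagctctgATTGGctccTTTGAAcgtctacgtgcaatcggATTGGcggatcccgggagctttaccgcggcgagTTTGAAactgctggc
Kif11: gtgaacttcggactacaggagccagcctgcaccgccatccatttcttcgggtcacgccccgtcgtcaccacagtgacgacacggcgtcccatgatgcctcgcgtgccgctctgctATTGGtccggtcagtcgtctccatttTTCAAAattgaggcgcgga
Mcm5, Mcm6 and Cdc6, which encode 2 subunits and a loader of the replicative helicase, had E2F sites between 47 and 153 bases before the start. Cdc20, Cdk1 and Kif11 had a CHR between 15 and 19 bases before the start with a CCAAT box further upstream, and Cdk1 also had an E2F site.

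The cultures expressed CTL genes: in the Cre control the mean log2 signal was 9.74 for Cd3e, 11.42 for Cd8a, 14.05 for Gzmb and 12.01 for Prf1. Of 5 measured B cell markers, 2 were above background there (Cd79b at 5.43 and Cd22 at 4.53) and the others, Ms4a1 (3.06) among them, were below it. Of 6 myeloid markers, 3 were above it (Csf1r at 6.35, Cd68 at 6.32 and Cd14 at 5.19), with Lyz2, Itgam and Adgre1 below it, and the only natural killer cell marker measured, Ncr1, was below it at 3.26. Cd4, the marker of CD4 T cells, was above background in every group. Its mean was 6.65 in Cre control, 6.52 in PDK1 null, 6.92 in wild type and 6.87 in AktI-treated cultures. In PDK1 null CTL Lyz2 was also above background, at 4.56. In the Akt experiment Cd79a, Cd79b, Cd22, Blk, Csf1r and Cd68 were above background. Cd68 fell with AktI (-1.30, SE 0.185, limma adjusted p = 0.00563) and was at 0.31 (SE 0.133, limma adjusted p = 0.319) after deletion. The part of such cells in the values below was not tested. Pdpk1 was at 8.98 in Cre control and 9.03 in PDK1 null CTL, a difference of 0.05 (SE 0.0693). Its probe sets are not known to lie in the deleted part, so this did not check the labels. Arrays of the PDK1 experiment had medians near 4.6 and those of the Akt experiment near 5.1, and differences were therefore tested only within an experiment.

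The PDK1 null arrays stood apart from each other in these genes. For the 16 mitosis genes, the median difference from the mean of the Cre control was 0.0994 on PDK1 null array 1, 0.4944 on array 2 and -0.069 on array 3 (log2 scale), whereas the 3 Cre control arrays lay between -0.0573 and 0.055. PDK1 null replicate 2 was the highest of its group for 16 of 16 mitosis genes and the highest of all 6 arrays for 15, and replicate 3 was the lowest of its group for 16 of 16. The 28 G1/S genes had the same order with smaller values, 0.0398, 0.2206 and -0.1066, and replicate 2 was the highest of its group for 24 and replicate 3 the lowest for 25. Over all 18193 genes, replicate 2 was the highest of its group for 5905 and the highest of all 6 arrays for 2398. Replicate 3 was the lowest of its group for 5802 of all genes. In the Akt experiment AktI replicate 1 was likewise the highest of its group for 16 of 16 mitosis genes, against 6289 of all 18193 genes. Wild type replicate 1, from the same mouse, was the highest of its group for 10 of 16, against 6397 of all 18193 genes. The medians of the 3 AktI arrays lay closer together, at 0.0206, -0.0533 and -0.112. The genes were read on the same arrays and are not independent of each other.

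The spread between cultures of these genes was larger in PDK1 null CTL than in the other groups. The median SD over 3 arrays of the mitosis genes was 0.064 in Cre control, 0.267 in PDK1 null, 0.0522 in wild type and 0.0798 in AktI-treated CTL. For the G1/S genes it was 0.0661, 0.15, 0.0681 and 0.035. Over all 18193 genes it was 0.0848, 0.0931, 0.0919 and 0.0765, also largest in PDK1 null CTL, by less. It was not particular to the listed genes, since p53 targets had a median SD of 0.0793 in Cre control and 0.196 in PDK1 null CTL, and 27 other regulators of G1 and S phase 0.0885 and 0.168. Mki67, a protein that coats mitotic chromosomes, lay at 9.46, 9.47 and 9.47 in Cre control and at 9.80, 10.07 and 9.36 in PDK1 null CTL. Its 3 control cultures were nearly identical, while the PDK1 null cultures fell on both sides of them. Over all probe sets, arrays of the PDK1 null group correlated with r of 0.996 to 0.997, those of the Cre control and the wild type with r of 0.997, and those of the AktI group with r of 0.997 to 0.998. In RNA from a whole culture, a changed share of cycling cells and a changed transcript level per cell cannot be told apart.

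**Figure D1:**
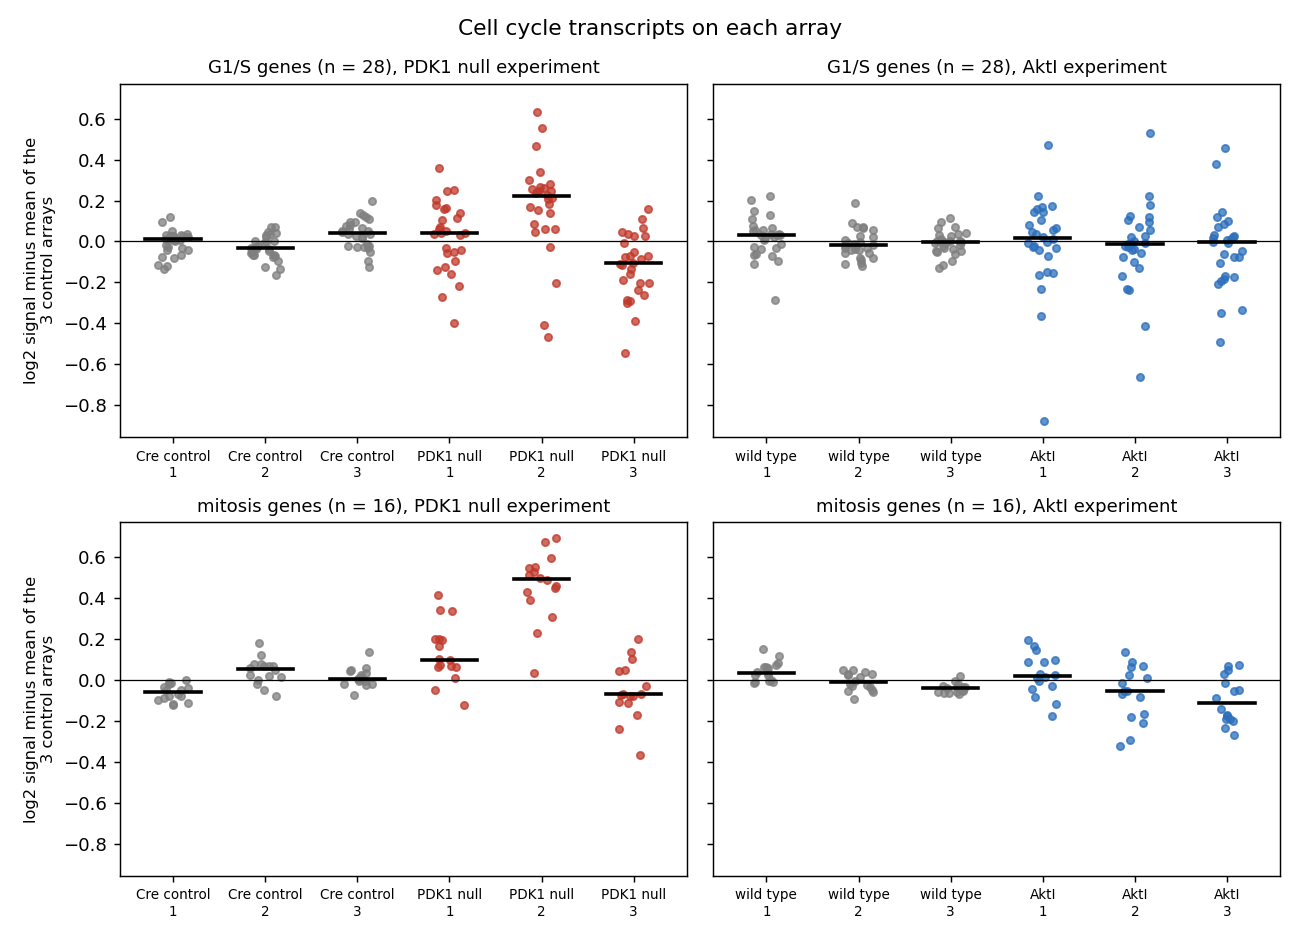
The y axis gives the log2 signal of each gene minus its mean over the 3 control arrays of the experiment, the x axis the array, each point 1 gene and each bar the median of the class. The mitosis genes of PDK1 null replicate 2 sit around 0.4944 and those of replicate 3 around -0.069, while the medians of the Akt experiment lie between -0.112 and 0.0377.

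**Figure D2:**
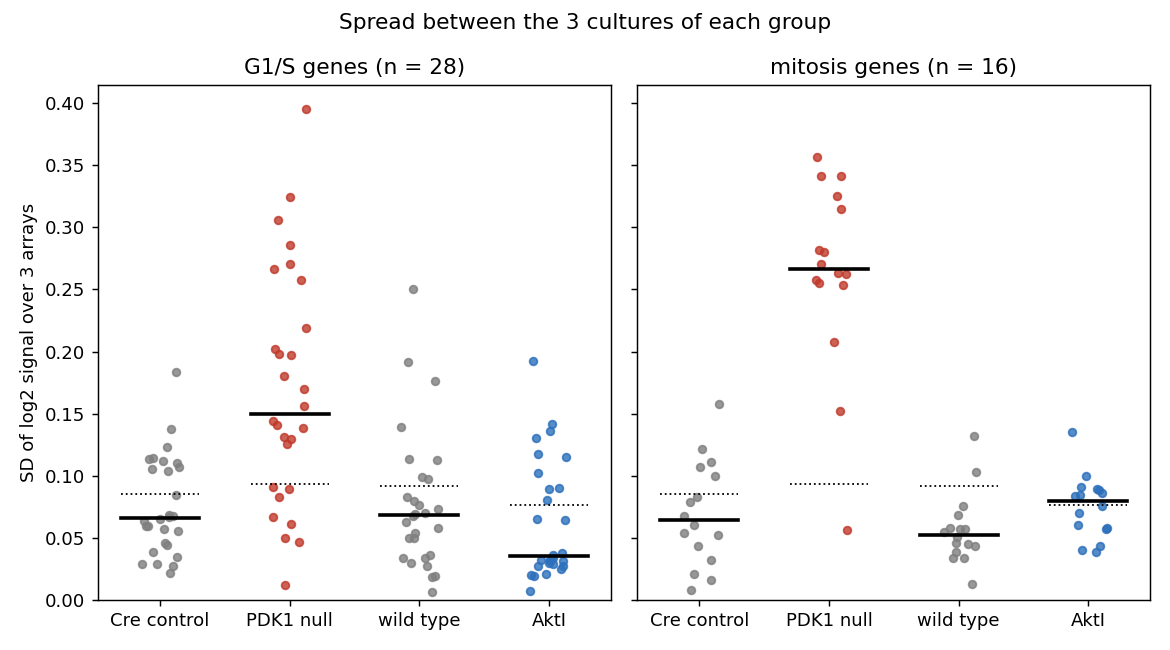
The y axis gives the SD of the log2 signal over the 3 arrays of a group, each point 1 gene, with the median of the class as a solid bar and the median over all genes as a dotted bar. The mitosis genes of PDK1 null CTL have a median SD of 0.267, against 0.064 in Cre control.

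Deletion of PDK1 changed no gene of the list past the threshold, which was a change of 1.5-fold or more with a limma adjusted p under 0.05. The count was 0 of 44, while 1.36% of all genes passed (1.01% higher and 0.357% lower). limma with trend and robust settings also gave 0. In the main fit so did the adjusted p without a fold minimum, which 2.37% of all genes met. At an unadjusted p under 0.05, 4 genes were higher (Cdt1, Cdkn2c, Ccnb2 and Birc5) and 3 were lower (Ccnd2, Ccnd3 and Cdkn1a), against 8.22% of all genes higher and 9.04% lower, 17.3% together. The arrays of the groups did not overlap for 5 higher and 3 lower genes of 44, against 10.9% and 13.7% of all genes, 24.7% together. The 95% interval of the log2 fold change lay within 1.5-fold of no change for 27 of 28 G1/S genes and 13 of 16 mitosis genes, against 93.5% of all genes. The intervals of Tyms, Ccnb2, Mki67 and Birc5 reached beyond it on the upper side.

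The median log2 fold change after deletion was 0.19 over the mitosis genes, with a higher mean for 14 of 16, and 0.03 over the G1/S genes, with a higher mean for 18 of 28, while over all genes it was -0.01 and 47.1% had a higher mean. The values changed when 1 culture was left out. Without PDK1 null replicate 2 the medians were 0.04 for mitosis genes (10 of 16 higher) and -0.02 for G1/S genes (12 of 28 higher), and without replicate 3 they were 0.30 and 0.11. Single genes moved too: without replicate 2 the log2 fold change was 0.179 for Cdkn2c, 0.087 for E2f2, 0.14 for Tyms, 0.271 for Ccnb2, 0.115 for Mki67 and 0.056 for Cenpe, each more than 1.5 times smaller than the value with all arrays, and Cdk1 was at -0.0804.

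The replication genes lay close to their control level. The 6 measured Mcm genes, Mcm2 to Mcm7, encode the ring of the replicative helicase, and their log2 fold changes after deletion lay between 0.04 for Mcm2 and 0.16 for Mcm7. Cdt1, which loads the helicase at origins, was at 10.02, 9.80 and 9.87 in Cre control and 10.26, 10.23 and 10.01 in PDK1 null CTL (0.27, SE 0.0935, limma adjusted p = 0.216). The lowest PDK1 null value of Cdt1 lay just below the highest control value. Cdc6, Gins1 and Gins2, also of helicase loading and activation, were at -0.06, -0.05 and 0.02. Pcna, the sliding clamp of DNA polymerases, was at 0.07, and Pola1 and Prim1, of the polymerase alpha-primase complex, were at 0.17 and 0.09.

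Genes of nucleotide supply had their highest PDK1 null value on replicate 2. Rrm2, the regulated subunit of ribonucleotide reductase, was at 11.54, 11.61 and 11.56 in Cre control and 11.43, 11.84 and 11.28 in PDK1 null CTL (-0.05, SE 0.13, limma adjusted p = 0.903). The PDK1 null values enclosed the controls. Rrm1, the other subunit, was at 0.02. Tyms, thymidylate synthase, was read by a probe set near background (4.60, 4.47 and 4.83 against 4.89, 5.27 and 4.66), so its difference of 0.30 (SE 0.155, limma adjusted p = 0.411) rests on a weak signal.

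Ccnd2 had the lowest log2 fold change of the list after deletion. It encodes cyclin D2, a partner of Cdk4 and Cdk6, and was at 12.49, 12.39 and 12.51 in Cre control and 12.07, 12.06 and 12.20 in PDK1 null CTL (-0.35, SE 0.0745, limma adjusted p = 0.059). The groups did not overlap. All 7 probe sets of Ccnd2 had a log2 fold change between -0.33 and -0.41, and for 1 other probe set the limma adjusted p was 0.0432, with a change below 1.5-fold. The limma adjusted p of Ccnd2 depended on the setting. It was 0.0051 with trend and robust settings and 0.0311 with dim probe sets left out. With the mean of all probe sets it was 0.0333, and in a model over all 12 arrays 0.0156. The change stayed below 1.5-fold, and under the other settings the adjusted p was above 0.05. 

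Ccnd3, cyclin D3, gave opposite answers from its probe sets. The brightest was at 10.29, 10.28 and 10.48 in Cre control and 10.13, 10.15 and 10.06 in PDK1 null CTL (-0.24, SE 0.0786, limma adjusted p = 0.195). Its dimmest probe set was at 5.50, 5.22 and 5.49 in Cre control and 6.50, 6.00 and 6.26 in PDK1 null CTL (0.85, SE 0.134, limma adjusted p = 0.0223). Among all genes, each read by its brightest probe set, 1.36% passed after deletion. Of the 105 probe sets of the listed genes 1 passed, namely the dimmest of Ccnd3. Leaving out any array but PDK1 null replicate 2 raised its adjusted p to between 0.0536 and 0.087, with a change of 0.72 to 0.89. The remaining probe set was at 0.04. The part of the transcript that each probe set reads was not analysed here, so no direction is given for Ccnd3 as a gene.

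The kinases and E-type cyclins showed smaller values. Cdk6 was at 0.04, Cdk4 at 0.02 and Cdk2 at 0.00, and Ccne1 and Ccne2, which partner Cdk2, were at -0.12 and -0.05. The E2F factors were at -0.00 for E2f1, 0.21 for E2f2 and -0.12 for E2f8, a repressor of the family.

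The CDK inhibitors of the list had log2 fold changes of opposite sign, neither past the threshold. Cdkn1a, which encodes p21, was at 11.33, 11.38 and 11.53 in Cre control and 11.14, 10.95 and 11.26 in PDK1 null CTL (-0.30, SE 0.097, limma adjusted p = 0.188). Its groups did not overlap on this probe set, but its other probe set had a change of 0.19 (SE 0.0761). Cdkn2c, which encodes p18, an inhibitor of Cdk4 and Cdk6, was at 8.19, 8.13 and 8.22 in Cre control and 8.38, 8.74 and 8.34 in PDK1 null CTL (0.30, SE 0.108, limma adjusted p = 0.226). All 3 PDK1 null arrays were above all 3 controls. Cdkn1a and Ccnd3 lie on the chromosome of Pdpk1, 151 and 455 measured genes away from it.

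Among the mitosis genes, Ccnb2 and Birc5 had the largest changes after deletion. Ccnb2, cyclin B2, was at 8.64, 8.93 and 8.68 in Cre control and 9.09, 9.44 and 8.95 in PDK1 null CTL (0.41, SE 0.134, limma adjusted p = 0.188). Birc5, the chromosomal passenger protein survivin, was at 9.31, 9.43 and 9.34 and at 9.78, 10.04 and 9.50 (0.41, SE 0.126, limma adjusted p = 0.167). In a model over all 12 arrays the limma adjusted p was 0.0458 for Birc5 and 0.0629 for Ccnb2, with changes below 1.5-fold. With trend and robust settings it was 0.0834 for Birc5 and 0.104 for Ccnb2, and under the other settings it was also above 0.05. For both genes the groups did not overlap, by a margin of under 0.1 between the nearest arrays. Cdk1, the kinase that drives entry into mitosis, was at 9.42, 9.49 and 9.51 and at 9.48, 9.93 and 9.30 (0.10, SE 0.144), with the PDK1 null arrays on both sides of the controls. Aurka, a kinase of the spindle poles, was at -0.06 and Foxm1, an activator of the mitosis genes, at -0.03, the only 2 mitosis genes with a lower mean. The remaining mitosis genes (Ccna2, Mki67, Top2a, Aurkb, Plk1, Bub1, Bub1b, Cdc20, Kif11, Kif20a and Cenpe) lay between 0.07 and 0.28.

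**Figure D3:**
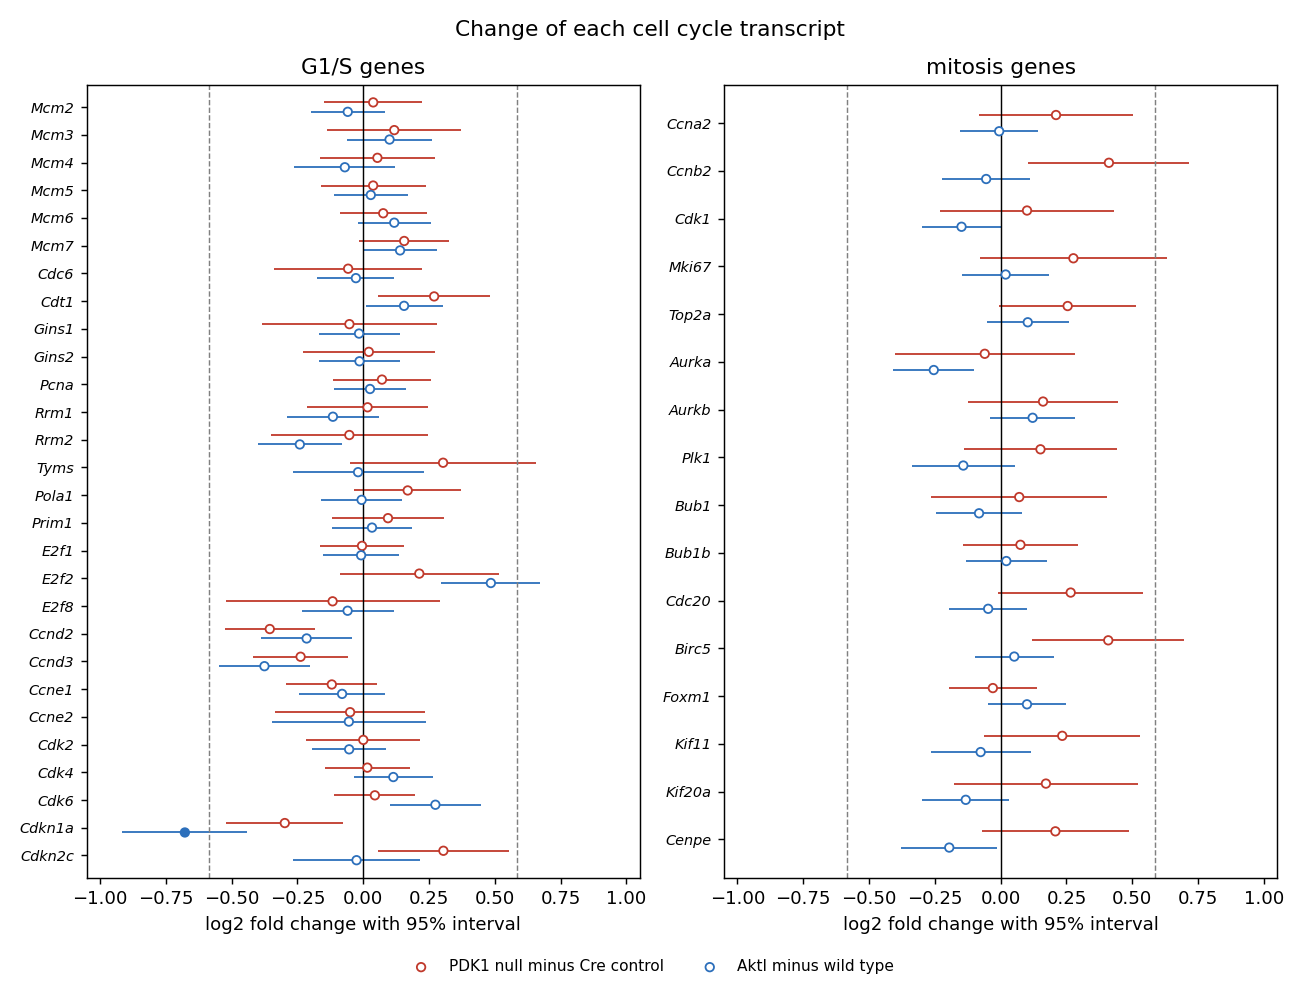
Points give the log2 fold change of each gene with its 95% interval as a line, for PDK1 null minus Cre control and AktI minus wild type, dashed lines mark 1.5-fold, and a filled point passed the threshold. The filled point is Cdkn1a with AktI at -0.68, and the intervals of the mitosis genes are wider in the PDK1 comparison.

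AktI lowered 1 gene of the list past the threshold and raised none: 1 of 44, against 2.53% of all genes (1.51% higher and 1.03% lower). The gene was Cdkn1a, at 11.05, 11.06 and 11.23 in wild type and 10.23, 10.45 and 10.62 in AktI-treated CTL (-0.68, SE 0.104, limma adjusted p = 0.00788, a 1.6-fold lower level). Every treated culture was below every untreated culture and below that of its own mouse. Its other probe set was lower by less (-0.47, SE 0.126, limma adjusted p = 0.0781). Without AktI replicate 1 the change was -0.58, below 1.5-fold, with an adjusted p of 0.0212.

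At an adjusted p under 0.05 with no fold minimum, which 6.59% of all genes met, E2f2 and Ccnd3 joined Cdkn1a. E2f2, an activating E2F factor, was at 8.70, 8.53 and 8.42 in wild type and 9.02, 9.08 and 9.01 in AktI-treated CTL (0.49, SE 0.0823, limma adjusted p = 0.0123). The treated arrays were all above the untreated ones, and the other probe set of E2f2 gave 0.39 (SE 0.0879, limma adjusted p = 0.043). The brightest probe set of Ccnd3 was at 11.51, 11.28 and 11.41 and at 11.03, 10.99 and 11.05 (-0.37, SE 0.0754, limma adjusted p = 0.0257), with no overlap. The dimmest probe set again went the other way, at 5.30, 5.21 and 4.92 in wild type and 6.00, 6.05 and 5.77 with AktI (0.80, SE 0.114, limma adjusted p = 0.0056). It passed the threshold in this separate set of arrays too. Without AktI replicate 2 the adjusted p of E2f2 was 0.0565, and that of the brightest Ccnd3 probe set lay between 0.071 and 0.101 with any array but wild type replicate 2 left out.

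For the other genes the adjusted p was above 0.05 in the main fit. With trend and robust settings the limma adjusted p was 0.00774 for Cdk6, 0.0106 for Aurka and 0.0245 for Ccnd2. With dim probe sets left out it was 0.0349, 0.0264 and 0.076, and with the mean of all probe sets 0.0468, 0.254 and 0.0938. In a model over all 12 arrays it was 0.0334, 0.321 and 0.123, and with a replicate block 0.104, 0.101 and 0.209. The count at an unadjusted p under 0.05 was 4 higher and 6 lower of 44, against 9.62% of all genes higher and 10.7% lower, 20.3% together. The arrays did not overlap for 9 higher and 8 lower genes, against 12.7% and 14.8% of all genes, 27.4% together. Cdk6 was at 11.81, 11.65 and 11.77 in wild type and 11.97, 11.96 and 12.12 with AktI (0.27, SE 0.0758, limma adjusted p = 0.0859), and its 3 probe sets gave 0.27 to 0.29. Ccnd2 was at 12.72, 12.52 and 12.55 and at 12.37, 12.36 and 12.42 (-0.21, SE 0.0752, limma adjusted p = 0.173). The treated arrays were above the untreated ones for Cdk6 and below them for Ccnd2.

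Replication and mitosis genes stayed close to their untreated level with AktI. Rrm2 was at 12.95, 12.90 and 12.90 in wild type and 12.76, 12.68 and 12.58 with AktI (-0.24, SE 0.0699, limma adjusted p = 0.101), with no overlap. The Mcm genes lay between -0.07 for Mcm4 and 0.14 for Mcm7, Cdt1 was at 0.16, and Pcna at 0.03. Aurka was at 10.10, 10.04 and 10.05 in wild type and 9.89, 9.74 and 9.80 with AktI (-0.25, SE 0.0677, limma adjusted p = 0.0759). Cenpe, a kinesin of the kinetochore, was at 9.64, 9.47 and 9.46 and at 9.40, 9.23 and 9.34 (-0.20, SE 0.08, limma adjusted p = 0.248), and again the groups did not overlap. Cdk1 was at -0.15, Mki67 at 0.02 and Birc5 at 0.05, and the largest rise of a mitosis gene was 0.12 for Aurkb.

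Over the classes, the median log2 fold change with AktI was -0.02 for the G1/S genes and -0.05 for the mitosis genes, against -0.02 for all genes, with a higher mean for 10 of 28 and 6 of 16, against 45% of all genes. The median difference within a mouse was 0.0149, -0.0117 and -0.0267 for the G1/S genes and -0.0198, -0.059 and -0.077 for the mitosis genes of mice 1, 2 and 3. The 95% interval lay within 1.5-fold of no change for 16 of 16 mitosis genes and 26 of 28 G1/S genes, against 93.4% of all genes, the exceptions being Cdkn1a and E2f2.

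**Figure D4:**
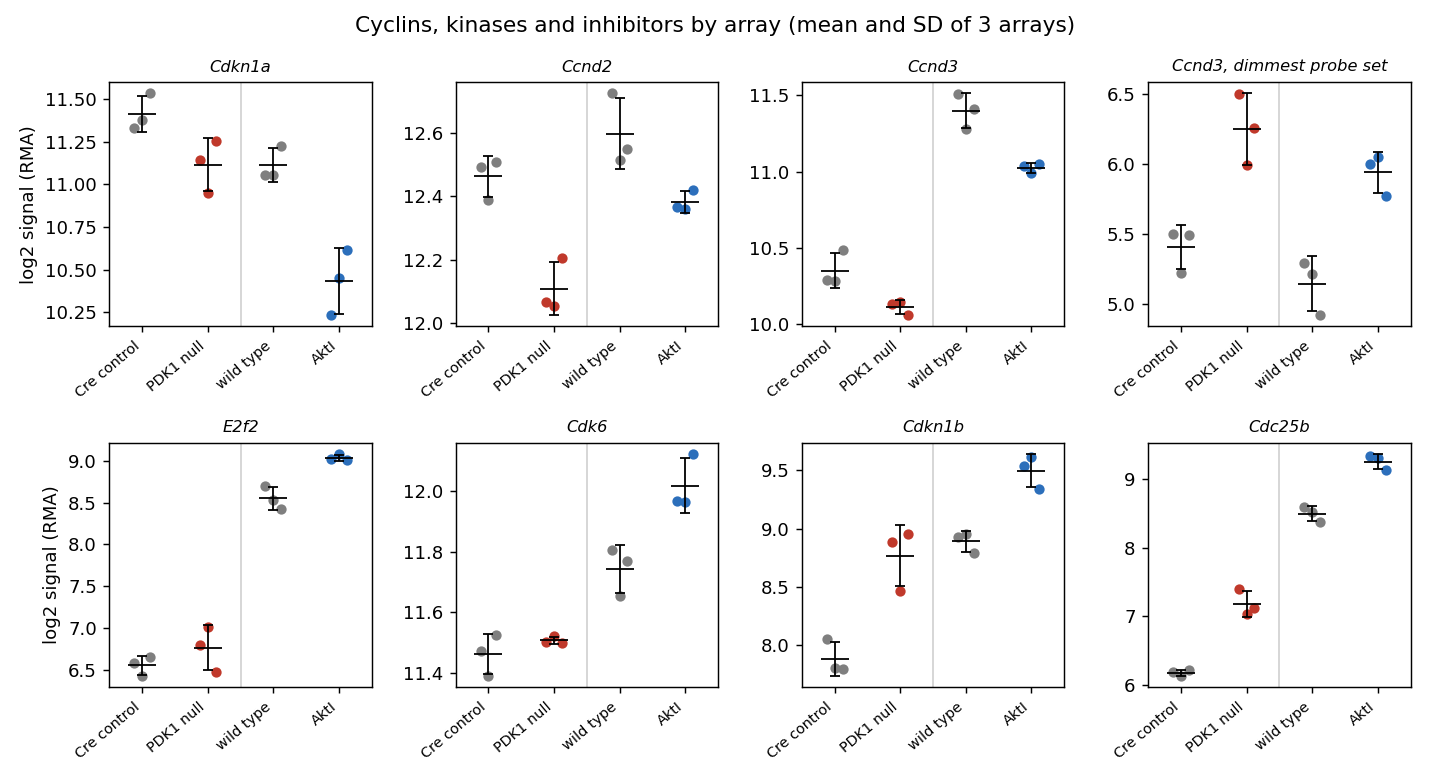
Each panel gives the log2 signal of a cyclin, kinase, E2F factor, inhibitor or phosphatase on the 12 arrays, with the mean and SD of 3 arrays per group, and a grey line parts the experiments, which were normalized separately. The group means of Ccnd2 lie lower and those of Cdkn1b and Cdc25b higher in both experiments, Cdkn1a has a change of -0.68 with AktI, and the panels of Ccnd3 run in opposite directions.

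The effects of deletion and inhibition were compared through their difference, since the experiments share no arrays. The difference passed the threshold for 0 of 44 genes in limma, against 0.522% of all genes (0.319% above 0 and 0.203% below), and for 0 with no fold minimum, against 0.616%. Trend and robust settings also gave 0. At an unadjusted p under 0.05, which 5.66% of all genes met above 0 and 5.42% below, 11.1% together, it was above 0 for Cdkn1a (0.38), Ccnb2 (0.47), Cdc20 (0.31), Birc5 (0.36) and Cenpe (0.40) and below 0 for Cdk6 (-0.23). The limma adjusted p of these 6 genes was 0.305 or higher. The median difference was 0.25 over the mitosis genes and 0.03 over the G1/S genes, against 0.00 over all genes, with 15 of 16 mitosis genes and 19 of 28 G1/S genes above 0, against 50.8% of all genes. These values rest in part on PDK1 null replicate 2, without which the median was 0.08 with 12 of 16 mitosis genes above 0 and -0.03 with 10 of 28 G1/S genes above 0, and the difference was 0.326 for Ccnb2, 0.224 for Birc5 and 0.251 for Cenpe. The interval of the difference, with all arrays, lay within 1.5-fold of no difference for 7 of 16 mitosis genes and 24 of 28 G1/S genes, against 87.4% of all genes.

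Other genes of the same processes, listed from general knowledge after the study's own gene tables had been read, included some that passed. Each was read from its brightest probe set alone, and other probe sets of these genes, where they had any, were not examined. In a list of 27 other regulators of G1 and S phase, 2 rose after deletion and 1 rose with AktI, against 1.01% and 1.51% of all genes. Cdkn1b, the inhibitor p27, was at 8.05, 7.80 and 7.80 in Cre control and 8.89, 8.47 and 8.95 in PDK1 null CTL (0.88, SE 0.134, limma adjusted p = 0.0192). With AktI it rose from 8.92, 8.95 and 8.79 to 9.54, 9.61 and 9.34 (0.61, SE 0.0887, limma adjusted p = 0.00625). Without AktI replicate 2 the change with AktI was 0.547 and without wild type replicate 3 it was 0.556, both below 1.5-fold. Its groups did not overlap in either experiment, and among the PDK1 null arrays it was lowest on replicate 2. Ccng2, an unconventional cyclin linked to cell cycle exit, rose after deletion (0.80, SE 0.111, limma adjusted p = 0.0148) and was at 0.24 with AktI. Cdkn1b and Ccng2 had been seen in the study's tables, which were drawn from these arrays, so their changes are not independent evidence. Leaving out a Cre control or PDK1 null array raised the adjusted p of Cdkn1b and of Ccng2 after deletion above 0.05 in 4 of 6 cases each, with changes of 0.73 or more.

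In a list of 56 other mitosis genes, 1 rose in each comparison, against 1.01% of all genes after deletion and 1.51% with AktI. It was the same gene in both. Cdc25b, a phosphatase that activates cyclin-dependent kinases, was at 6.19, 6.14 and 6.22 in Cre control and 7.40, 7.03 and 7.13 in PDK1 null CTL (1.00, SE 0.0989, limma adjusted p = 0.00373). With AktI it rose from 8.59, 8.52 and 8.37 to 9.32, 9.30 and 9.12 (0.76, SE 0.086, limma adjusted p = 0.00188). It was also among the study's tabled genes, and it passed with each array left out in turn. At an unadjusted p under 0.05 in limma, 16 of the 56 were higher and 0 lower after deletion, against 8.22% and 9.04% of all genes, and 3 were higher and 1 lower with AktI, against 9.62% and 10.7%. The arrays did not overlap for 17 higher and 0 lower after deletion, against 10.9% and 13.7% of all genes. The median of the 56 genes after deletion was 0.19, and 52 had a higher mean, which became 0.07 and 41 without PDK1 null replicate 2. On that array 51 of the 56 genes had the highest value of all 6 arrays, against 2398 of all 18193 genes.

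Of 38 measured genes of a list of 41 other DNA replication genes, 0 passed in either comparison in limma. Of all genes, 1.36% passed after deletion and 2.53% with AktI. At an unadjusted p under 0.05 in limma, 3 of the 38 were higher and 1 lower after deletion, against 8.22% and 9.04% of all genes. With AktI 4 of the 38 were higher and 4 lower, against 9.62% and 10.7%. Orc2, a subunit of the origin recognition complex, was lower after deletion (-0.39, SE 0.0767, limma adjusted p = 0.0467), by less than 1.5-fold. Rfc3, a subunit of the clamp loader, and Tk1, thymidine kinase, were lower with AktI (-0.48, SE 0.0746, limma adjusted p = 0.00818, and -0.39, SE 0.0614, limma adjusted p = 0.00877), also by less than 1.5-fold. PDK1 null replicate 2 was the highest of its group for 36 of these 38 genes and replicate 3 the lowest for 37, against 5905 and 5802 of all 18193 genes.

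Targets of p53 were listed because Cdkn1a is among the best known of them. Of 16 measured of 17, 0 passed after deletion, against 1.36% of all genes (3 higher and 2 lower at an unadjusted p under 0.05 in limma, against 8.22% and 9.04%), and with AktI 3 rose and 1 fell, against 1.51% and 1.03%. Sesn1 (0.79, SE 0.0872, limma adjusted p = 0.00164), Btg2 (0.62, SE 0.0832, limma adjusted p = 0.00393) and Trp53inp1 (0.62, SE 0.0791, limma adjusted p = 0.00316) rose, in the direction opposite to Cdkn1a. Sesn1 has 4 probe sets and Btg2 and Trp53inp1 have 2 each, of which only the brightest was examined. Perp fell (-0.75, SE 0.141, limma adjusted p = 0.0193). Without wild type replicate 3 the changes of Btg2 and Trp53inp1 were 0.559 and 0.558, below 1.5-fold. Perp no longer passed without any 1 of the wild type arrays (adjusted p of 0.0531 to 0.0682) or without AktI replicate 2 (-0.576, below 1.5-fold), while Sesn1 passed with each array left out. After deletion Trp53inp1 was at 0.56 (SE 0.152, limma adjusted p = 0.122). On PDK1 null replicate 2, where the mitosis genes were highest, the p53 targets had a median of -0.2227 relative to the Cre control mean. There 13 of the 16 genes were lowest of their group, against 7098 of all 18193 genes. The part of this in the values of the cell cycle genes was not tested.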

How the data were processed

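RNA of 12 CTL cultures, 3 per group, was measured on Affymetrix mouse arrays. The authors deposited log2 signals, normalized with RMA in Affymetrix Expression Console 1.1, which entered the fits unchanged. Of 45101 probe sets, 64 were controls and 45037 were tested, of which 34945 name 1 gene in the platform annotation, 932 name several and 9160 name none. Each comparison was fitted in R 4.3.3 with limma 3.58.1 (lmFit, eBayes) from its 6 arrays without covariates. The AktI values and intervals above therefore do not use the pairing by mouse, except where a replicate block is named. The difference of the effects was a contrast of contrasts over all 12 arrays. The Benjamini-Hochberg adjustment covered all tested probe sets, and passing meant 1.5-fold or more with an adjusted p under 0.05. The fits were also run on simulated data with independent noise for each probe set and the same SD in every group. That setting held no genes that move together by array and no wider spread in PDK1 null CTL, so those features were not tested. The number of arrays limits the precision.

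The genes and lists were chosen with earlier results of these data known. Values per array were given for genes that passed, for those with an unadjusted p under 0.01, and for the 3 with the largest change in each class and comparison. Those of Cdt1 after deletion were given in addition, outside this rule. From each further list the genes that passed were named, up to 4 per comparison, or the 2 with the largest change. Plk3 and Orc5, which this rule also picks, had log2 fold changes of -0.35 and 0.34 after deletion and did not pass.

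Groups came from the sample labels. For AktI, arrays with the same number come from the same mouse per the labels. After removal of group means, those pairs correlated with r of 0.0343 to 0.17, against -0.102 to 0.0383 for other pairs. The study's SAM procedure was not run. Promoter windows came from RefSeq.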

Additional observations from a re-analysis of the deposited data

How the results depend on the processing

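Settings changed were the variance model, the normalization (quantile, or a shift of each array to a common median), the removal of dim probe sets, the fold minimum, averaging over probe sets, pooling of both experiments in a fit, a replicate block, and the removal of each array. Some were also applied, as chosen after seeing the data, to the genes that passed in the further lists, to the dimmest Ccnd3 probe set and to the counts of higher means. After PDK1 deletion the count of genes that passed was 0 under every alternative run. With AktI it was 3 with no fold minimum and 0 with the mean of all probe sets, and it ranged from 0 to 1 with arrays left out, the 0 being without AktI replicate 1, for the whole list as for the G1/S genes. With the replicate block, which pairs AktI cultures by mouse, it stayed 1, the limma adjusted p of Cdkn1a being 0.00653. With that block the limma adjusted p with AktI was 0.0384 for the brightest and 0.00268 for the dimmest Ccnd3 probe set. It was 0.00628 for Cdkn1b, 0.00256 for Cdc25b and 0.0117 for Btg2. The block moved no count by over 1.5 times in the PDK1 comparison, where arrays share only a number (r of -0.011 to 0.0496 for equal numbers). With the mean of all probe sets, Cdkn1a with AktI was at -0.574 with an adjusted p of 0.0155, and Ccnd3 turned to 0.216 after deletion and 0.084 with AktI, because its probe sets differ in sign, as do those above background of 8 and 7 genes in the comparisons. With arrays left out, changes near 0 turned sign: after deletion Aurka (-0.244 to 0.0929), Cdk1 (-0.0804 to 0.235) and Rrm2 (-0.212 to 0.0641), and with AktI Cdkn2c (-0.0894 to 0.0768), Mki67 (-0.0151 to 0.0691) and Tyms (-0.0775 to 0.0911). The count of G1/S genes with a difference between the effects above 0 was 19, and 10 to 23 with PDK1 null arrays left out. The median of the mitosis genes with AktI was 0.00 with the mean of all probe sets. The causes were not tested.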

Other observations

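The control cultures of the experiments differed in the level of these genes, a comparison across separately normalized and untreated-versus-4OHT cultures in which experiment, Cre and drug cannot be told apart. Relative to the Cre control, the wild type log2 signal was higher by a median of 2.03 for the mitosis genes (1.55 to 2.54) and 1.34 for the G1/S genes. For 6890 genes in the same range of Cre control signal as the mitosis genes, the median was 0.80 and the 5th to 95th percentile 0.04 to 1.47.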
